A study of Mus musculus with 6 samples.

Results

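The genes described here are 10 neighbours of Trmt1l on mouse chromosome 1: Hmcn1, Gm10138, Ivns1abp, Swt1, Rnf2, Gm36527, Edem3, Colgalt2, Rgl1 and Arpc5. They were taken by symbol in the GENCODE M21 annotation of GRCm38, lie within 2 Mb of Trmt1l, and are 10 of 78 annotated genes whose bodies lie in that window and of 55450 genes counted in all. They were selected on position and on measured log2 fold changes between the groups, which were already known, so their differences between the groups are given as a description. Where a test across all genes called one of them, that is stated as a count and supports nothing. The data are 6 long-RNA libraries of total mouse brain, 3 labelled WT and 3 labelled TRMT1L KO. The labels describe biological triplicates, and the strain, age, sex, litter, batch and kind of knockout allele are not given in the sources used here.

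TRMT1L is a protein related to the tRNA methyltransferase TRMT1. Genes that lie close together can share a promoter region, run into each other at their ends or be transcribed through each other on opposite strands. The protein-coding neighbours have varied roles, from chromatin repression (Rnf2) to actin branching (Arpc5) and the extracellular matrix (Hmcn1).

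Counts in genes on the strand of the gene ranged from 31201119 to 36145961 per library, and this strand held between 94.6% and 94.8% of the counts of both strands. Trmt1l itself had 1279, 1034 and 1158 counts in WT and 93, 101 and 106 in KO, which do not overlap. Levels are in CPM, which are counts relative to library size after TMM scaling, and log2 fold changes are KO over WT from edgeR's quasi-likelihood fit. In these units the KO mean of Trmt1l, 2.87 CPM, was 8.33% of the WT mean of 34.4 CPM. All 5 or 7 markers of each of 8 cell classes were above 0 in every library. The summed neuron markers lay between 4308 and 4460 CPM in WT and between 4204 and 4404 CPM in KO. Those of oligodendrocytes lay between 3490 and 3919 CPM in WT and between 3011 and 3584 CPM in KO, with all 5 fitted lower in KO and 1 called by DESeq2. Those of astrocytes lay between 1068 and 1124 CPM in WT and between 1050 and 1204 CPM in KO, with 3 fitted higher and 2 lower. Those of microglia lay between 149 and 185 CPM in WT and between 144 and 172 CPM in KO, with 2 fitted higher and 3 lower. In bulk tissue, fewer cells of a type and less RNA per cell cannot be told apart.

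The neighbours meet Trmt1l at both of its ends. Swt1, on the minus strand, has its GENCODE start just before that of Trmt1l, with 86 bases between them, so that both genes start from one region and point away from each other. Such head-to-head starts within 300 bases were found for 613 of 10960 protein-coding genes on the plus strand (5.59%). At the other end Rnf2, also on the minus strand, overlaps Trmt1l tail to tail over 158 exonic bases, from 151458004 to 151458161. Further out, Gm10138 runs antisense to the start of Ivns1abp, with 279 exonic bases in common. Gm36527 lies within 1 intron of Rnf2 on the same strand. Rgl1 and Arpc5 form another head-to-head pair, with 190 bases between their annotated bodies.

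**Figure D1:**
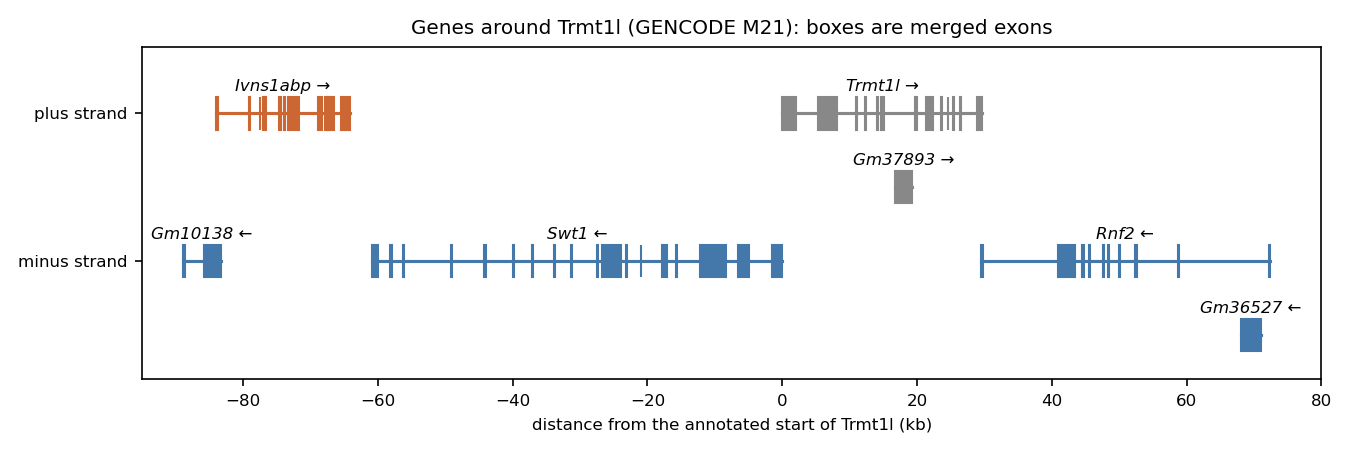
Map of the genes nearest to Trmt1l. The x axis is the distance from the annotated start of Trmt1l in kb, rows separate the strands, boxes are merged exons, arrows give the direction of transcription, and grey marks Trmt1l and Gm37893, a feature inside its intron. Swt1 starts beside the start of Trmt1l, and the last exon of Rnf2 overlaps the end of Trmt1l by 158 bases.

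The promoter windows of both head-to-head pairs and of Ivns1abp are shown because these genes start beside or within another gene described here. They are RefSeq windows on GRCm38.p6 from 250 bases before a start to 50 bases after it. Of the 10 neighbours, 7 have an entry in the table, as does Trmt1l. The Trmt1l window lies at chr1:151428292-151428591 on the plus strand, shares 206 bases with the window of Swt1 and holds the RefSeq start of Swt1 at base 144 and that of Trmt1l at base 251. Capitals mark matches, on either strand, to the pattern ACTACA, then any 3 bases, then CCCAG. It is known as a core of the element bound by ZNF143, and was searched after this sequence had been read.

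Trmt1l: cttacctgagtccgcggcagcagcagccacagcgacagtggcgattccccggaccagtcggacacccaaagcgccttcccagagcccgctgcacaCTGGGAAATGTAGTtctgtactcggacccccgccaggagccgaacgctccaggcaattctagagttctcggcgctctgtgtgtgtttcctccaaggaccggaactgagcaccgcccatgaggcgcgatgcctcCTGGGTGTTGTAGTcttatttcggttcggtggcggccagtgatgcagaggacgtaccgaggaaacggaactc

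Both matches are on the minus strand of this window, from base 96 to 109 and from base 229 to 242. At least 1 match was present in 383 of 32851 RefSeq promoter windows (1.17%) and at least 2 in 34 (0.103%). As the pattern was chosen after this window had been read, nothing is read from these shares. Both matches also lie in the Swt1 window, since they fall in the shared bases, and the 2 windows therefore count the same sites. The Trmt1l window had 61.0% G and C and 24 CpG dinucleotides, against medians of 52.7% and 7 over all windows. The Arpc5 window lies at chr1:152766292-152766591 on the plus strand, and its capitals mark the 236 bases between the RefSeq starts of Rgl1 and Arpc5. It had 41 CpG dinucleotides and 73.7% G and C.

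Arpc5: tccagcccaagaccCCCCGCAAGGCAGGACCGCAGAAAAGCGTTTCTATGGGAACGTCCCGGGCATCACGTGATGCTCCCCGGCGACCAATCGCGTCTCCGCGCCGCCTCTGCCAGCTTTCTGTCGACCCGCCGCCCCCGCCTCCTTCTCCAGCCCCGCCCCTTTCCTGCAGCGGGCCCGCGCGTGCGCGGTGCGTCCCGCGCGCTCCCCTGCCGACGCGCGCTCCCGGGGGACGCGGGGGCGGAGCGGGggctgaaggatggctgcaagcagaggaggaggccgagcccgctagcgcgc

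The first of 2 Ivns1abp windows lies at chr1:151344236-151344535 on the plus strand, inside the body of the antisense gene Gm10138. Capitals mark the 50 bases from the start on. It had 37 CpG dinucleotides and 70.3% G and C. Neither this window nor that of Arpc5 holds a match to that pattern.

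Ivns1abp: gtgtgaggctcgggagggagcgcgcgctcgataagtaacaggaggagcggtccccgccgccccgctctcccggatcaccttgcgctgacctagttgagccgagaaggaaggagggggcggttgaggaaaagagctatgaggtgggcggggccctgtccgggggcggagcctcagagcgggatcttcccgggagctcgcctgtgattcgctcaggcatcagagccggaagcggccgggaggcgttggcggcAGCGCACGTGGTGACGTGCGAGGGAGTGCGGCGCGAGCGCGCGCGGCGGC

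All 10 neighbours passed the filter on low counts. In the edgeR test 0 of the 10 had an adjusted p-value under 0.05, against 0.00942% of the 21237 genes tested. At an unadjusted p-value under 0.05 there were 6 of 10, against 7.92% of all genes. Of these 2 were higher in KO, against 4.54% of all genes, and 4 lower, against 3.38%. The DESeq2 Wald test called 1, Ivns1abp, against 0.122% of all genes, while its independent filtering left 7 of the 10, and 77.5% of all genes, without an adjusted p-value. Without that filtering it also called 1, Hmcn1, against 0.0706% of all genes. The KO and WT libraries did not overlap for 5 of the 10, against 14.4% of all genes. In 2 of them KO lay above WT, against 7.46% of all genes, and in 3 below, against 6.97%. As these genes were proposed from the same contrast, nothing is read from these shares. Over the 10 genes the median log2 fold change was -0.09, and over all genes tested it was 0.00013.

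**Figure D2:**
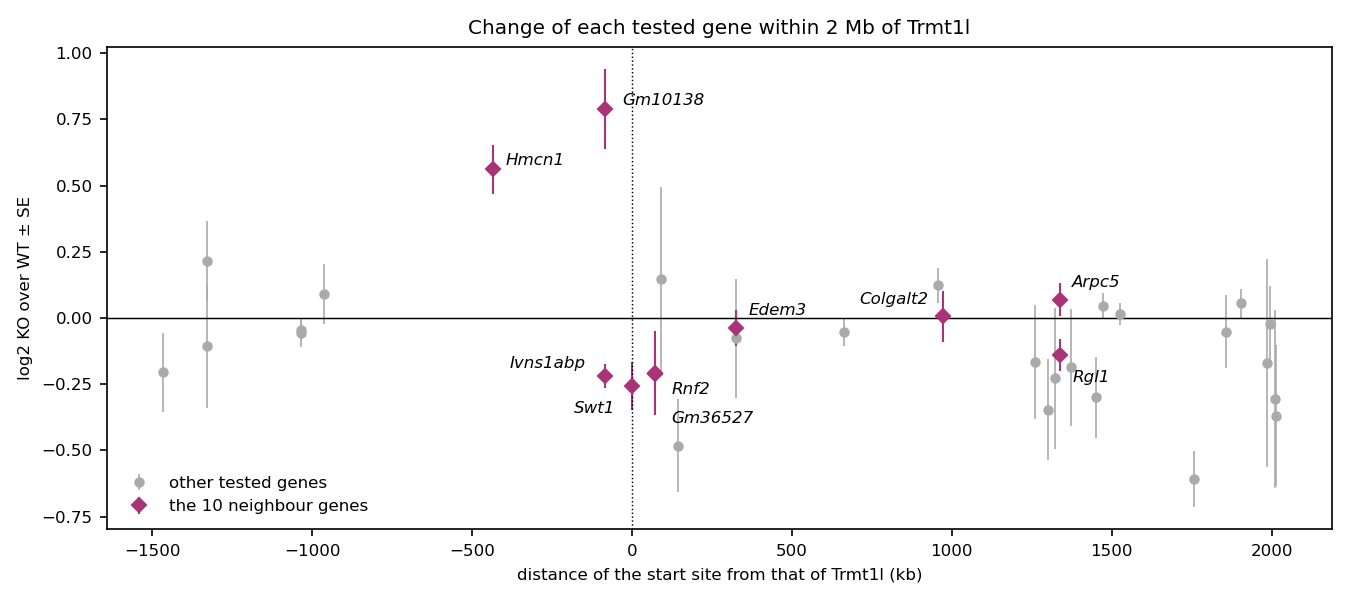
Log2 fold change of KO over WT (y axis, ± SE from edgeR) against the distance of each gene's start from the start of Trmt1l (x axis, kb) for the tested genes within 2 Mb, without Trmt1l and Gm37893 at -3.58 and -8.29. Diamonds are the 10 neighbours, of which Gm10138 and Hmcn1 lie highest, at 0.79 and 0.56, and Ivns1abp, Swt1, Rnf2 and Gm36527 lie between -0.26 and -0.21.

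Ivns1abp (ENSMUSG00000023150.14, chromosome 1 from 151344477 to 151364422, plus strand) encodes a kelch-repeat protein that binds actin and the NS1 protein of influenza virus. It ends 64.1 kb before Trmt1l. Its level was 144, 138 and 147 CPM in WT libraries 1 to 3 and 125, 126 and 118 CPM in KO libraries 1 to 3. The lowest WT library thus lay above the highest KO library. The WT libraries averaged 143 ± 4.55 CPM and the KO libraries 123 ± 4.26 CPM (SD, n = 3), and the estimated log2 fold change was -0.22 (SE 0.0465). Leaving out 1 library at a time kept the value between -0.24 and -0.19.

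Gm10138 (ENSMUSG00000100954.4, chromosome 1 from 151339604 to 151345231, minus strand) is annotated as an antisense RNA with 2 exons. Its counts were 58, 47 and 58 in WT and 93, 92 and 108 in KO. Each KO library exceeded each WT library. The WT libraries averaged 1.62 ± 0.133 CPM and the KO libraries 2.80 ± 0.166 CPM (SD, n = 3), and the estimated log2 fold change was 0.79 (SE 0.151). The antisense RNA was thus higher in KO while Ivns1abp, the gene it runs against, was lower.

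Since Gm10138 and Ivns1abp share exonic bases on opposite strands, both stranded columns were read for this pair. On the strand opposite to Gm10138, which is that of Ivns1abp, the Gm10138 exons held 268, 199 and 242 counts in WT and 231, 204 and 231 in KO. These counts overlapped between the groups, and their log2 difference was -0.15 (SE 0.113). The opposite strand therefore made up 81.3% ± 0.832 of the counts over Gm10138 in WT and 69.5% ± 1.64 in KO (SD, n = 3). In the column without regard to strand, where fragments that touch both genes are dropped, Gm10138 kept 62, 48 and 63 counts in WT and 100, 93 and 117 in KO. The log2 fold change in that column was 0.79 (SE 0.156), so the difference was present outside the shared bases. Minus-strand counts over the exons of Ivns1abp were 56, 38 and 54 in WT and 30, 43 and 47 in KO, which overlapped.

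Swt1 (ENSMUSG00000052748.14, chromosome 1 from 151367699 to 151428455, minus strand) encodes an endoribonuclease of nuclear mRNA quality control. Its level was 26.4, 25.6 and 27.0 CPM in WT and 22.4, 24.8 and 18.8 CPM in KO. The groups did not overlap, but KO library 2 lay close to the lowest WT library and KO library 3 lay furthest below. The WT libraries averaged 26.3 ± 0.704 CPM and the KO libraries 22.0 ± 3.01 CPM (SD, n = 3), and the estimated log2 fold change was -0.26 (SE 0.0893). Without KO library 3 it was -0.15, and without KO library 2 it was -0.35. Trmt1l, which starts beside Swt1 in the window printed above, had a log2 fold change of -3.58. Swt1 thus kept most of its level in libraries in which Trmt1l was at 8.33% of WT.

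Rnf2 (ENSMUSG00000026484.13, chromosome 1 from 151458004 to 151500955, minus strand) encodes RING1B, the catalytic ubiquitin ligase of Polycomb repressive complex 1, which marks histone H2A. Its level was 31.7, 30.5 and 29.6 CPM in WT and 25.9, 26.4 and 27.1 CPM in KO. Every KO library lay below every WT library. The WT libraries averaged 30.6 ± 1.03 CPM and the KO libraries 26.5 ± 0.594 CPM (SD, n = 3), and the estimated log2 fold change was -0.21 (SE 0.0577). It stayed between -0.23 and -0.18 over the alternatives run.

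Gm36527 (ENSMUSG00000103238.1, chromosome 1 from 151496557 to 151499585, minus strand) is a single-exon feature of the GENCODE class TEC, whose members await experimental proof. Because it lies in an intron of Rnf2 on the same strand, intronic Rnf2 reads cannot be told apart from its own. It had 188, 151 and 114 counts in WT and 124, 144 and 138 in KO. The groups overlapped, and the WT libraries spread further than the KO libraries. The WT libraries averaged 4.48 ± 0.899 CPM and the KO libraries 3.89 ± 0.360 CPM (SD, n = 3), and the log2 estimate was -0.21 (SE 0.159). It was -0.09 without WT library 1 and -0.36 without WT library 3. No library had a count on the opposite strand of Gm36527.

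**Figure D3:**
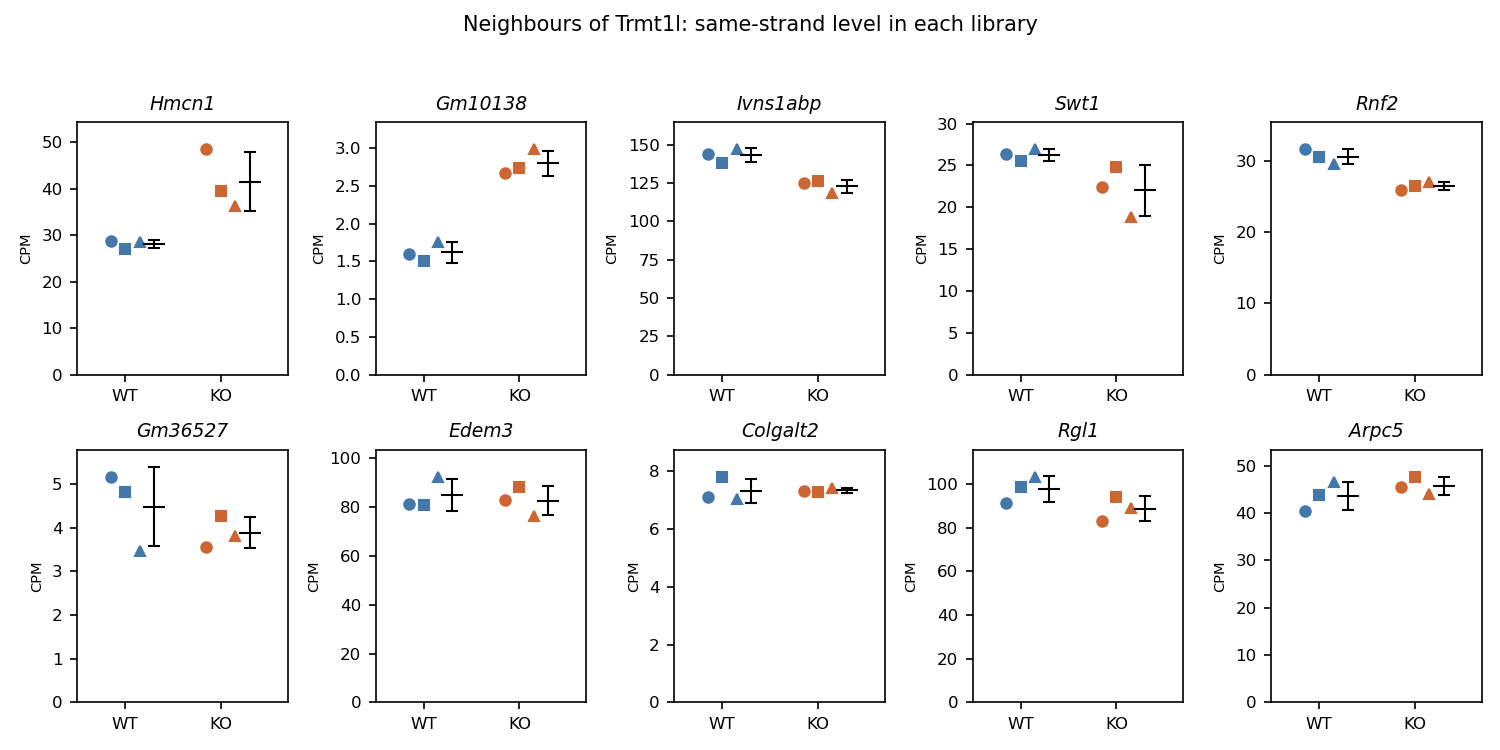
Level of each neighbour in CPM (y axis, from 0) in the WT (blue) and KO (orange) libraries. Circles, squares and triangles are libraries 1, 2 and 3, and black bars are the mean ± SD of 3 libraries. For Hmcn1 and Gm10138 all KO points lie above the WT points, and for Ivns1abp, Swt1 and Rnf2 all lie below them.

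Hmcn1 (ENSMUSG00000066842.18, chromosome 1 from 150562524 to 150993435, minus strand) encodes hemicentin-1, a very large extracellular matrix protein of the fibulin group. It starts 435 kb before Trmt1l, with no other tested gene except Gm10138, Ivns1abp and Swt1 between them. Its counts were 1047, 851 and 936 in WT and 1687, 1334 and 1314 in KO. In CPM the WT libraries stood at 28.8, 27.1 and 28.4 and the KO libraries at 48.5, 39.6 and 36.4. All KO libraries lay above all WT libraries, and KO library 1 stood apart from the other two. The WT libraries averaged 28.1 ± 0.861 CPM and the KO libraries 41.5 ± 6.31 CPM (SD, n = 3), and the estimated log2 fold change was 0.56 (SE 0.0922). Without KO library 1 it was 0.43. Without KO library 3 it was 0.65, and Hmcn1 was then among the genes that edgeR called.

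The antisense gene Gm20631 shares 399 exonic bases with Hmcn1. Counts over Gm20631 on the strand of Hmcn1 were 62, 50 and 51 in WT and 87, 77 and 85 in KO, which also did not overlap. Reads of Hmcn1 fall in this column, so these counts are not a separate measurement. Summed markers of the choroid plexus, an epithelium that secretes cerebrospinal fluid, lay between 310 and 364 CPM in WT and between 368 and 441 CPM in KO. Every KO library was thus above every WT library, as was so for 1 of its 5 markers. All 5 were fitted higher in KO, with a median log2 fold change of 0.18, and DESeq2 called 1. Those of meninges and fibroblasts lay between 68.4 and 78.0 CPM in WT and between 61.6 and 72.9 CPM in KO, with 2 of 5 markers lower in every KO library and a median log2 fold change of -0.16. Those of endothelium lay between 206 and 207 CPM in WT and between 208 and 268 CPM in KO, without overlap in the sum but with overlap for each of the 5 markers. Those of blood lay between 109 and 149 CPM in WT and between 98.3 and 247 CPM in KO. All 5 blood markers were fitted higher in KO, with a median log2 fold change of 0.52, but the groups overlapped for each of them. KO library 1, the highest for Hmcn1, was also the highest library for choroid plexus (441 CPM) and blood (247 CPM). It was the lowest KO library for endothelium (208 CPM) and between the other KO libraries for meninges and fibroblasts (66.9 CPM). The part of these cell classes in the difference of Hmcn1 was not tested.

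The remaining 4 neighbours lie between 297 kb and 1308 kb beyond the end of Trmt1l, and their groups overlapped. Edem3 (ENSMUSG00000043019.12, chromosome 1 from 151755371 to 151822051, plus strand) encodes a mannosidase-like protein that trims glycans of misfolded proteins in the endoplasmic reticulum. Its level was 81.3, 80.9 and 92.4 CPM in WT and 83.1, 88.5 and 76.5 CPM in KO. The log2 fold change was -0.04 (SE 0.0674), and its sign turned in 2 of the 11 alternatives run.

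Colgalt2 (ENSMUSG00000032649.14, chromosome 1 from 152399830 to 152510695, plus strand) encodes a galactosyltransferase that adds galactose to hydroxylysine in collagen. Its counts on its own strand were 259, 245 and 232 in WT and 255, 245 and 269 in KO. Means of 7.33 ± 0.424 and 7.35 ± 0.0830 CPM (SD, n = 3) gave a log2 fold change of 0.01 (SE 0.0957). The groups overlapped and no direction was stable, as the sign turned in 5 of 11 alternatives.

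Rgl1 (ENSMUSG00000026482.13, chromosome 1 from 152516760 to 152766351, minus strand) encodes an exchange factor that activates Ral GTPases. Its level was 91.5, 98.7 and 103 CPM in WT and 82.9, 94.2 and 89.3 CPM in KO. KO libraries 1 and 3 lay below the WT range and KO library 2 within it. The log2 fold change was -0.14 (SE 0.0610).

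Arpc5 (ENSMUSG00000008475.13, chromosome 1 from 152766542 to 152775597, plus strand), which starts beside Rgl1, encodes the smallest subunit of the Arp2/3 complex, which nucleates branched actin. Its level was 40.5, 43.7 and 46.5 CPM in WT and 45.5, 47.7 and 43.9 CPM in KO. The groups overlapped, and the log2 estimate was 0.07 (SE 0.0627). It was 0.02 without WT library 1, 0.12 without WT library 3 and 0.04 without KO library 2. The 2 genes of this head-to-head pair had estimates of opposite sign, each of which kept its sign in all 11 alternatives run. The difference between them was not tested.

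The strand opposite to each gene was read next. Enough opposite-strand counts for the test were present for 5 of the 10 neighbours, and Rnf2 was the 1 with an adjusted p-value under 0.05 in edgeR, against 0.0278% of 10787 genes. Its difference was known beforehand, and only its WT counts were high enough for the filter, so nothing is read from this call. Among those 5 the groups did not overlap for Rnf2 and Colgalt2, against 10.7% of genes, and in both KO lay below WT, against 5.43%. Over the exons of Rnf2, which hold the end of Trmt1l, the opposite strand carried 39, 28 and 33 counts in WT and 2, 1 and 1 in KO. It made up 3.13% ± 0.248 of the counts over Rnf2 in WT and 0.145% ± 0.0664 in KO (SD, n = 3). Since these reads lie on the strand of Trmt1l, they are no measure of Rnf2 itself. In the column without regard to strand the log2 fold change of Rnf2 was -0.21 (SE 0.0590), like that on its own strand.

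Colgalt2 shares no exonic base with an annotated gene, yet its exons carried 23, 24 and 19 opposite-strand counts in WT and 15, 10 and 9 in KO. Every KO library lay below every WT library. The opposite strand made up 8.22% ± 0.678 of counts over Colgalt2 in WT and 4.24% ± 1.19 in KO (SD, n = 3), and the log2 fold change of the opposite-strand counts was -1.01 (SE 0.323). Rgl1, which lies on that strand, ends 6.06 kb beyond Colgalt2. For Swt1 the opposite-strand counts were 15, 11 and 11 in WT and 4, 12 and 6 in KO, which overlapped. Edem3 carried 6, 6 and 5 such counts in WT and 11, 13 and 10 in KO. Here every KO library lay above every WT library, but the counts were too few for the test. Hmcn1, Rgl1 and Arpc5 had at most 4 such counts in a library.

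**Figure D4:**
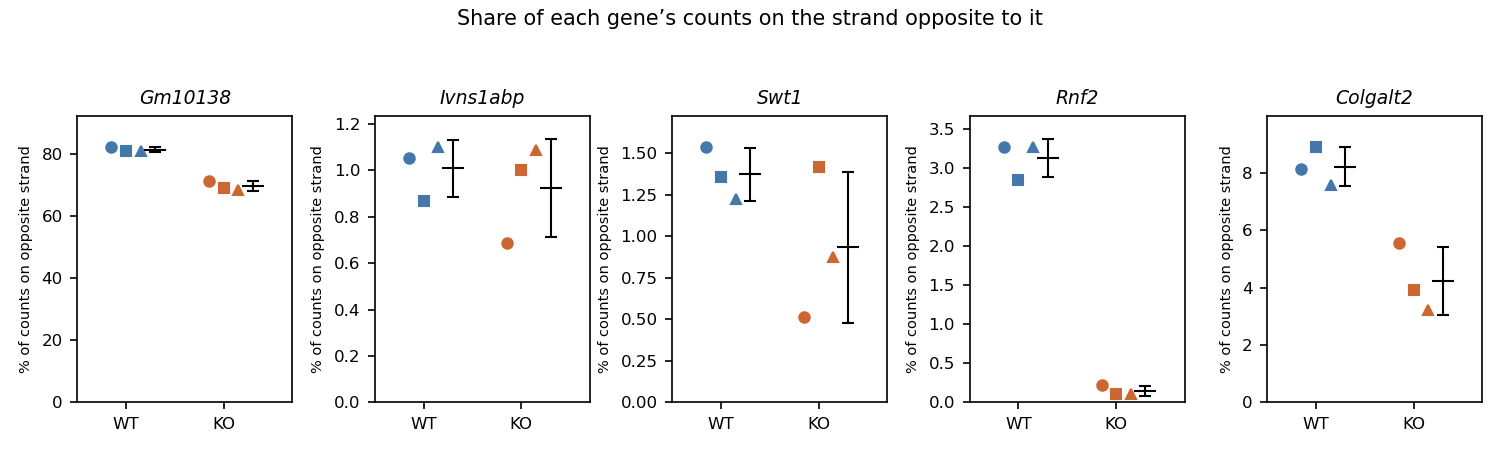
Percent of the counts over a gene's exons that lie on the opposite strand (y axis, from 0) in the WT (blue) and KO (orange) libraries for the 5 neighbours with enough counts. Symbols are libraries 1 to 3 as circles, squares and triangles, and bars are the mean ± SD. The share of Rnf2 was 3.13% in WT and 0.145% in KO, and that of Colgalt2 8.22% and 4.24%.

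Between genes, levels were compared per kilobase of merged exons. In WT the order was Ivns1abp at 26.4, Arpc5 at 19.1, Rgl1 at 14.2, Edem3 at 13.3 and Rnf2 at 7.42 CPM per kb. Swt1 at 2.04, Colgalt2 at 1.73, Gm36527 at 1.48, Hmcn1 at 1.33 and Gm10138 at 0.569 CPM per kb followed. Rgl1 and Edem3, with SDs of 0.868 and 1.03, did not differ beyond their spread. Gm36527, with an SD of 0.297, did not differ beyond that spread from Colgalt2 or from Hmcn1. Colgalt2 and Hmcn1, with SDs of 0.0998 and 0.0406, lay further apart than their spread. In KO Hmcn1 stood at 1.96 ± 0.298, Colgalt2 at 1.73 ± 0.0196 and Swt1 at 1.71 ± 0.234 CPM per kb (SD, n = 3), which did not differ beyond the spread of Hmcn1. Merged exons include rarely used ones, which lowers the value of genes with many annotated forms.

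Apart from the 10 neighbours, Trmt1l and Gm37893, the window held 25 tested genes. Their log2 fold changes ranged from -0.61 to 0.22 with a median of -0.08. In edgeR 0 of the 25 had an adjusted p-value under 0.05, and 2 had an unadjusted one. DESeq2 called 0 but gave no adjusted p-value for 20 of them, and called 1 without independent filtering. The groups did not overlap for 4 of them (16.0%, against 14.4% of all genes). Fam129a stood at 3.87, 5.42 and 4.35 CPM in WT and 3.68, 2.50 and 3.54 CPM in KO, and the log2 difference of Gm28791 was -0.30 (SE 0.153). Tsen15, a subunit of the endonuclease that splices tRNA, was the 1 with KO above WT, at 16.7, 17.2 and 16.9 against 19.2, 18.0 and 18.1 CPM. At the limit of the window, the log2 difference was -0.02 (SE 0.145) for Shcbp1l just inside and, for Dhx9, whose body crosses the limit, -0.05 (SE 0.0461). On the other side Pla2g4a, the last tested gene inside, had -0.20 (SE 0.149), and the next tested gene, A230059L01Rik, lay far beyond the limit with 0.50 (SE 0.654).

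The neighbours were then set beside genes of the same complex, family or pathway elsewhere in the genome, from 7 lists. In none of these lists did a gene have an adjusted p-value under 0.05 in edgeR or in DESeq2, but DESeq2 could call none of the 5 collagen genes or of the 10 hemicentins, fibulins and nidogens, since it gave them no adjusted p-value. In Polycomb repressive complex 1 it gave none for 15 of 20 genes, and in the other lists for 4 or 5 genes each. Without independent filtering DESeq2 called Hmcn1 alone among them. The counts at an unadjusted p-value under 0.05 below include neighbours chosen on this contrast and stand against 7.92% of all genes. In Polycomb repressive complex 1, 2 of 20 genes had an unadjusted p-value under 0.05, and the median log2 fold change was 0.04. Those were Rnf2 and Ring1, which encodes RING1A, the other catalytic subunit. Ring1 had 712, 658 and 636 counts in WT and 731, 769 and 873 in KO, and its log2 difference was 0.18 (SE 0.0718; edgeR adjusted p = 0.600). In CPM the lowest KO library exceeded the highest WT library by little. Per kilobase Rnf2 stood at 7.42 and Ring1 at 6.16 CPM per kb in WT, and at 6.42 and 6.99 in KO. Cbx2, Cbx7 and Phc1 also had all KO libraries above all WT libraries, with 0.38 (SE 0.183), 0.10 (SE 0.0544) and 0.07 (SE 0.0503).

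Of the 14 genes of Ral signalling, 3 had an unadjusted p-value under 0.05, Rgl1 among them, and the median was 0.00. Rgl2, a paralog of Rgl1 on another chromosome, stood at a log2 difference of 0.20 (SE 0.0615; edgeR adjusted p = 0.576) and Rgl3 0.05 (SE 0.0836), against -0.14 for Rgl1. Ralgds, with all KO libraries above WT, had 0.09 (SE 0.0527). Of the 10 hemicentins, fibulins and nidogens, 2 had an unadjusted p-value under 0.05, Hmcn1 and Fbln1, and the median was 0.10. Fbln1, a fibulin of basement membranes, had 312, 272 and 292 counts in WT and 396, 334 and 435 in KO, and its log2 difference was 0.35 (SE 0.0959; edgeR adjusted p = 0.576). The paralog Hmcn2 had 0.01 (SE 0.183), at 0.158 CPM per kb in WT.

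In the Arp2/3 complex 1 of 10 genes had an unadjusted p-value under 0.05, Arpc1b at 0.24 (SE 0.102), and the median was 0.05. The paralog Arpc5l had 0.05 (SE 0.0694), near the 0.07 of Arpc5. Among 14 genes of mannose trimming and degradation in the endoplasmic reticulum there were 3, Erlec1 at -0.15 (SE 0.0515), Man1b1 at 0.13 (SE 0.0523) and Derl1 at 0.12 (SE 0.0513), around a median of 0.05. Uggt2 had -0.12 (SE 0.0558), with all KO libraries below WT. The paralogs Edem1 and Edem2 had -0.03 (SE 0.0676) and 0.07 (SE 0.0666). Edem3 was the highest of these 3 paralogs, at 13.3 CPM per kb in WT against 4.39 and 5.13.

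Of the 5 genes of collagen lysine modification 0 had an unadjusted p-value under 0.05, and the median was 0.03. Colgalt1 stood at a log2 difference of 0.03 (SE 0.0638), and stood at 9.64 CPM per kb in WT against 1.73 for Colgalt2. Of the 10 genes of mRNA export and quality control at the nuclear pore, Swt1 was the 1 with an unadjusted p-value under 0.05, around a median of -0.01. Tpr, a pore protein of this list that also lies within 2 Mb of Trmt1l, had -0.04, and Mcm3ap, with all KO libraries above WT, 0.09 (SE 0.0471).

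**Figure D5:**
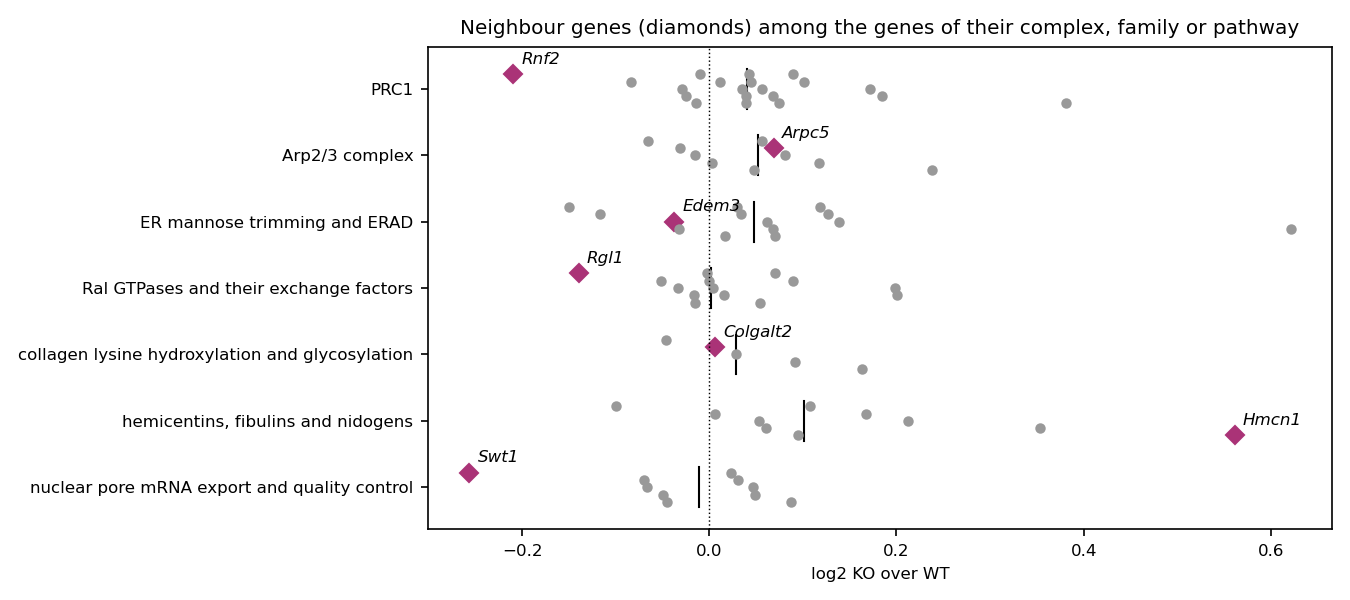
Log2 fold change of KO over WT (x axis) of each tested gene in the 7 lists (rows). Diamonds are the neighbours of Trmt1l, grey points the other genes of the list, and vertical bars the list medians, which lie between -0.01 and 0.10. Points are offset vertically only to separate them.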

How the data were processed

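Long RNA (over 200 bp by size selection, per the labels' protocols) from mouse brain was read as counts in 6 libraries. The deposited tables hold raw whole-number counts per gene, per the file layout, without regard to strand and for each strand. The submitters' processing notes name cutadapt 1.9.1 and STAR 2.7.0f. The build is not given in the sources used here, but all 55450 gene IDs are those of GENCODE M21. The last column, with at least 80% of stranded counts in every library, gave same-strand values, and the third column opposite-strand values. Fragments in several genes are left out in such counting.

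In R 4.3.3, edgeR 4.0.16 (filterByExpr, TMM, quasi-likelihood test, genotype as sole factor) was fitted to all 21237 genes passing the filter, with Benjamini-Hochberg adjustment. The SE is the fold change divided by the square root of F. DESeq2 1.42.0 was an alternative. On simulated counts of these 21237 genes, 5%, 51.5% and 85.5% of 200 genes changed by 0.25, 0.5 and 1 (log2) were recovered. Of the genes called there, 23.1%, 7.21% and 9.52% were false, against the 5% aimed at by the threshold.

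The 10 genes, the lists and the tests were chosen with earlier results of these data known. Named beside the 10 were Trmt1l, genes overlapping them, tested genes at the 2 Mb limits, window genes of at least 1 CPM whose groups do not overlap, paralogs, and up to 4 list genes with smallest p and no overlap. Some genes that this rule names are not reported here. Window counts over RefSeq promoters used 250 bases before and 50 after a start.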

Additional observations from a re-analysis of the deposited data

How the results depend on the processing

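The same-strand test called 2 genes, none of the 10 neighbours. It called 298 without a filter on low counts, among them Gm10138, Hmcn1 and Ivns1abp, 26 with the DESeq2 Wald test, among them Ivns1abp but neither of the 2, since independent filtering left 77.5% of genes, Trmt1l included, without an adjusted p. Without that filtering, an alternative chosen after seeing the data, it called 15, both of the 2 and Hmcn1 among them. There were 4 with the replicate block, none of them a neighbour. Leaving out 1 library gave from 2 to 5 genes, with Hmcn1 among the 5 without KO library 3. The opposite-strand test called 3 genes, 15 without a filter, 1 with a mean count of at least 50 (Rnf2 was then not tested) and 5 with the replicate block, and from 2 to 12 with 1 library left out. The 12 came without KO library 3, 9 without WT library 3 and 6 without KO library 2, and Rnf2 was among them each time. The causes were not tested. Same-numbered WT and KO libraries had deviations correlated at 0.040, -0.031 and -0.058, so the numbers gave no sign of pairing. Of 110 alternative fold changes of the 10 genes on their own strand, 107 moved by at most 1 SE. Scaling by DESeq2 size factors or total counts moved the median of all genes by -0.00046 or -0.010 (log2). Keeping genes of at least 1 CPM moved the median of the tested genes within 2 Mb from -0.11 to -0.06 and removed no gene of the 7 lists. The opposite-strand alternatives for single neighbours were chosen after seeing the data. With 3 libraries a group, differences near 0.25 (log2) were mostly not detectable.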

Other observations

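One further feature of the interval between Hmcn1 and Gm10138 was chosen after its values were seen. Gm37671, an annotated plus-strand feature on chromosome 1 from 151080450 to 151082545, had no same-strand count in any library. On the opposite strand, which is that of Hmcn1, it held 17, 19 and 16 counts in WT and 0, 0 and 11 in KO. KO libraries 1 and 2 were thus below the floor of 3 counts, and KO library 3 also lay below every WT library (edgeR adjusted p = 0.444).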
